A study of Mus musculus with 2 samples.

Results

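The 9 genes described here encode axon guidance and neurotrophic cues: the neurotrophic factor Gdnf, the netrins Ntn1 and Ntng1, the secreted semaphorins Sema3a, Sema3c and Sema3d, the slits Slit2 and Slit3, and the semaphorin receptor Nrp1. They were taken by symbol from the 34285 genes measured, and all 9 were found once in each library. Their Ensembl identifiers are ENSMUSG00000022144 (Gdnf), ENSMUSG00000020902 (Ntn1), ENSMUSG00000059857 (Ntng1), ENSMUSG00000028883 (Sema3a), ENSMUSG00000028780 (Sema3c), ENSMUSG00000040254 (Sema3d), ENSMUSG00000031558 (Slit2), ENSMUSG00000056427 (Slit3) and ENSMUSG00000025810 (Nrp1). Single-cell RNA sequencing had been performed on mandibular first molars with their surrounding tissue from C57BL/6J mice at PN15.5 (postnatal day). One library came from mice injected intraperitoneally with clodronate liposomes (Lipo-Clo), which kill the phagocytes that take them up, at 40 μg/g in 4 injections from PN3.5 until PN12.5, and the other from mice given vehicle liposomes (Lipo-PBS). Each condition therefore had 1 library, the number of mice in it was not stated, and no test between conditions was possible.

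Guidance cues steer growing axons by attracting or repelling their tips, and neurotrophic factors keep neurons alive once they have reached a target. Netrin-1 acts through Dcc, Neo1 and the Unc5 receptors, netrin-G1 (Ntng1) is anchored in the membrane and binds the netrin-G ligand Lrrc4c, class 3 semaphorins act through neuropilins and plexins, slits through Robo receptors, and GDNF through Gfra1 with Ret. In developing teeth, sensory axons of the trigeminal nerve grow around the germ before they enter the pulp, and Sema3a is known to hold them back at early stages. The cell bodies of these neurons lie outside the tooth, and among the 16515 cells used the neuronal markers Snap25 and Nefl had 2 UMIs each, Th had 7, Trpv1 12, Nefm 17 and Prph 50. The cues can therefore be described here in non-neuronal cells of the molar and its surrounding tissue, and not in the neurons.

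After filtering, 8254 Lipo-Clo and 8261 Lipo-PBS cells remained, with medians of 2567 and 2678 UMIs (unique molecular identifiers, 1 per captured RNA molecule) per cell. Dental mesenchyme held 4269 and 4065 of them. Macrophages made up 1.54% of Lipo-Clo cells (exact 95% interval 1.28 to 1.83) and 2.09% of Lipo-PBS cells (1.80 to 2.43), and neutrophils made up 6.22% and 2.26%. Mitochondrial genes took 0.370% and 1.73% of UMIs, and summed erythroid markers in mesenchyme were at 22229 and 52450 CPM. The part of these differences in the results was not tested. The 2 libraries shared 30 barcodes. Levels are CPM (the UMIs of a gene scaled to 1e+06 UMIs of the same cells), paired values give Lipo-Clo first and Lipo-PBS second, and intervals are exact 95% intervals that cover counting error only. CPM of different genes are not compared with each other.

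Mesenchymal cells fell into 11 subclusters, formed without the 9 genes and their binding partners among the variable genes. Marker lists named a pulp or papilla-like, a dental follicle-like, a periodontal ligament-like, an osteoblast or cementoblast-like and an odontoblast-like subcluster, 2 fibroblast-like subclusters and a cycling one. The other 3 did not carry enough markers for a name and are called by their leading genes. The first of these, led by Ctnnd2 and Slc20a2, had UMIs of the pulp list genes Enpp6 and Sox9 in 33.3% and 29.5% of its cells. Under 3 genes of the whole pulp list (also Nnat, Aox3, Tac1, Syt6, Crym and Rab3b) met the naming rule there, so it is not called pulp-like. The subcluster led by Aspn, Crispld2 and Tnn had the ligament list gene Tnmd in 60.3% of its cells. Aspn and Tnn are on that list too, but under 3 genes of it met the naming rule there. The ligament-like name therefore does not cover all cells with ligament list genes. Tnmd was also seen in 81.1% of the follicle-like cells, so that the line between follicle and ligament was not sharp. The low level that free RNA gives was read from B cells and neutrophils, which should lack these genes. It lay between 5.65 CPM (Sema3a) and 25.9 CPM (Slit3) in Lipo-Clo and between 8.09 and 50.6 CPM for the same genes in Lipo-PBS, except for Gdnf, which had no UMI there. These cells had medians of 1874 and 1441 UMIs.

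Gdnf, the ligand of Gfra1 and Ret, had the fewest UMIs of the 9 genes, 102 in all cells used. Of these, 28 lay in Lipo-Clo mesenchyme and 30 in Lipo-PBS mesenchyme, at 1.94 and 2.21 CPM. Within mesenchyme its level was highest in the Ctnnd2-led subcluster, with 16 UMIs in Lipo-Clo (23.7 CPM, 13.5 to 38.5) and 8 in Lipo-PBS (19.0 CPM, 8.19 to 37.4). The smaller fibroblast-like subcluster, led by Col14a1 and Ccl19, came next at 14.3 and 7.93 CPM from 5 and 4 UMIs, within the counting error of the first. The other source was epithelium. Of its 18 Lipo-Clo and 15 Lipo-PBS UMIs, 18 and 13 came from the epithelial cluster led by Clu, Ambn and Odam, genes of enamel-forming and junctional epithelium, at 10.9 and 14.6 CPM.

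Ntng1, the membrane-bound netrin, was highest in the unnamed Ctnnd2-led cells and in pulp-like cells. It stood at 389 CPM (344 to 439) and 401 CPM (342 to 466) in the Ctnnd2-led subcluster, and 293 CPM (266 to 321) and 290 CPM (258 to 326) in the pulp or papilla-like subcluster. In every other mesenchymal subcluster but the cycling one it lay at or below 50.4 CPM, and the cycling cells had 65.9 and 70.5 CPM. At 1000 UMIs per cell, 25.1% of Lipo-Clo and 26.9% of Lipo-PBS pulp-like cells held an Ntng1 UMI, against 0.831% and 1.05% of B cells and neutrophils (48.7%, 56.1%, 2.60% and 2.64% before thinning). Outside mesenchyme, the same level of expression was met in a small epithelial cluster led by Cxcl14, Dsc3 and Nppc, with 388 CPM in its 60 Lipo-Clo cells and 390 CPM in its 74 Lipo-PBS cells. Glia had 69.6 and 57.4 CPM.

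Ntn1, the secreted netrin, had other sources. It was highest in the 2 fibroblast-like subclusters, with 147 CPM in both libraries in the larger one (led by Mfap5 and Clec3b) and 185 and 141 CPM in the Col14a1- and Ccl19-led one, whose intervals overlapped those of the first. The follicle-like subcluster followed with 102 CPM (89.1 to 117) and 72.8 CPM (60.3 to 87.1). In the pulp-like and Ctnnd2-led subclusters Ntn1 lay between 4.44 and 11.9 CPM, no higher than the free-RNA level of 9.65 and 14.2 CPM. A further source lay outside mesenchyme, in the endothelial cluster led by Ccl21a, Mmrn1 and Lyve1, genes known from lymphatic vessels. There Ntn1 reached 204 CPM in 31 Lipo-Clo cells and 160 CPM in 147 Lipo-PBS cells, whereas the endothelial cluster led by Flt1 and Cdh5 had 3.98 and 29.2 CPM.

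The 3 semaphorins were each highest in another mesenchymal subcluster. Sema3a, which repels sensory axons, was highest in the Col14a1- and Ccl19-led fibroblast-like cells, at 208 CPM (163 to 262) and 287 CPM (242 to 338). With mesenchyme split more coarsely, at resolution 0.3, other cells led for Sema3a and its highest level, with both libraries summed, was 116 CPM in place of 255 CPM. The osteoblast or cementoblast-like cells came next with 109 and 124 CPM, and pulp-like cells had 22.1 and 42.2 CPM. Sema3c was highest in the larger fibroblast-like subcluster, at 220 CPM (192 to 250) and 280 CPM (258 to 303), followed by ligament-like cells at 93.4 and 138 CPM. Among the other classes glia held Sema3c at 79.9 and 108 CPM.

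Sema3d was highest in odontoblast-like and epithelial cells. Odontoblast-like cells, marked by Dspp, had 188 CPM (158 to 222) and 235 CPM (196 to 278), and the next highest value in a mesenchymal subcluster was 57.7 CPM. Epithelium held 637 of the 1135 Lipo-Clo UMIs and mesenchyme 395, while of the 1355 Lipo-PBS UMIs epithelium held 475 and mesenchyme 563. Within epithelium the Ambn- and Odam-led cluster had 344 and 311 CPM, the Cxcl14-led cluster 309 and 663 CPM, and the keratin-rich cluster led by Lgals7 and Krt14 only 19.2 and 26.7 CPM. The Ccl21a-led endothelial cells were a further source, at 160 and 207 CPM.

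Ntng1, Sema3c and Sema3d led in different mesenchymal cells (Ctnnd2-led and pulp-like, fibroblast-like, and odontoblast-like), and the 250 bases before their annotated starts are shown for that reason, from RefSeq on GRCm38.p6, 5′ to 3′ on the strand of the gene, with CG dinucleotides in capitals. Of the 9 genes, 8 had an entry in the promoter table, and Ntn1 had none.
Ntng1, chr3:110143473-110143722, minus strand: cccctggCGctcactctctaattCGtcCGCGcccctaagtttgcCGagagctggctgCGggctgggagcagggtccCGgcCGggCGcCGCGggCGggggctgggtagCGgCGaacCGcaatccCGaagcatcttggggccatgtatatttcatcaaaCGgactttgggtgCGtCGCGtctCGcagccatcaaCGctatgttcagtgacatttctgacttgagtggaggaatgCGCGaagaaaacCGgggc
Sema3c, chr5:17574566-17574815, plus strand: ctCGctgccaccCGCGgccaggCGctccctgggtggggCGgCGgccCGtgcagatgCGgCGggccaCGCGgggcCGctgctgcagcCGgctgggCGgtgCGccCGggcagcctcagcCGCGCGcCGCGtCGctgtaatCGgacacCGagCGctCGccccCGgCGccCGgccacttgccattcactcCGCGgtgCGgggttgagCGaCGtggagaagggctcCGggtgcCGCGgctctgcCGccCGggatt
Sema3d, chr5:12382916-12383165, plus strand: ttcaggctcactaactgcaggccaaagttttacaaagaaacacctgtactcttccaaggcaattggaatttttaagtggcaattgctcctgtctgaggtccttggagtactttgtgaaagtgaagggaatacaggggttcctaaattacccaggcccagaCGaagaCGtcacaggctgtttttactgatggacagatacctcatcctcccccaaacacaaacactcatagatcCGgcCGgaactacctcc
CG occurred 25 times before Ntng1, 39 times before Sema3c and 4 times before Sema3d. Of all 32851 promoter entries, with a median of 6, 10.7% held at least as many as Ntng1, 1.56% as many as Sema3c and 62.2% as many as Sema3d. The letters TATAAA were found on neither strand of the 3 windows, and they occur in 12.4% of all entries. These counts describe the windows and carry no information on methylation or binding in the cells measured.

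The 2 slits, repellents that act through Robo receptors, overlapped only in part. Slit2 was high in the follicle-like cells (172 and 280 CPM), the ligament-like cells (165 and 323 CPM) and the Col14a1- and Ccl19-led fibroblast-like cells (220 and 323 CPM). The last 2 did not differ beyond counting error in Lipo-PBS. The Aspn- and Tnn-led cells, which carry ligament list genes too, had 34.0 and 43.7 CPM. Pulp-like cells had 17.4 and 44.2 CPM, against a free-RNA level of 19.0 and 30.3 CPM. Slit3 was spread through all mesenchyme and peaked in the Ctnnd2-led subcluster, at 429 CPM (381 to 482) and 448 CPM (386 to 517). Perivascular cells held Slit3 at 149 and 169 CPM and Slit2 at 67.0 and 88.4 CPM. In epithelium, Slit2 (114 and 75.4 CPM) was concentrated in the Ambn- and Odam-led cluster, at 170 and 143 CPM.

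Nrp1, the receptor for Sema3a that also binds VEGF, was foremost a vascular gene. The Flt1- and Cdh5-led endothelial cells had 545 and 486 CPM, and the Ccl21a-led endothelial cells none in Lipo-Clo and 28 UMIs (38.7 CPM) in Lipo-PBS. Perivascular cells followed with 157 and 146 CPM, and macrophages with 87.3 CPM (57.0 to 128) and 143 CPM (111 to 182). In mesenchyme it was highest in the fibroblast-like subclusters (132 and 161 CPM in the larger one, 157 and 232 CPM in the smaller one), and all other subclusters lay at or below 45.9 CPM.

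**Figure D1:**
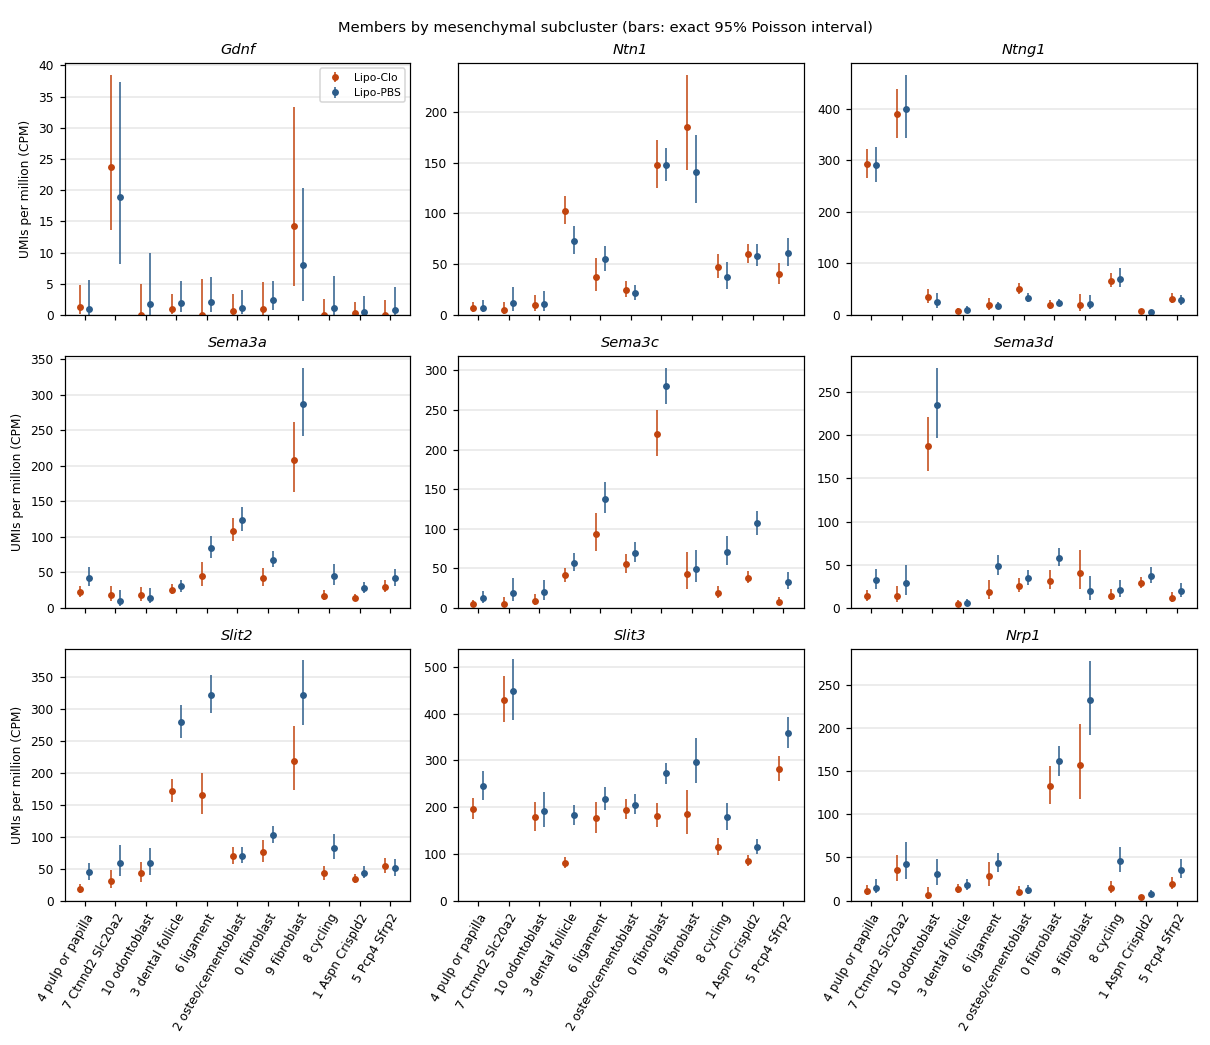
Level of each gene (y axis, CPM) in the 11 mesenchymal subclusters (x axis, by number and name or leading genes) in Lipo-Clo and Lipo-PBS. Points are single libraries and bars are exact 95% Poisson intervals. Ntng1 stands near 290 to 401 CPM in the pulp-like and Ctnnd2-led cells of both libraries, Sema3d at 188 and 235 CPM in odontoblast-like cells.

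**Figure D2:**
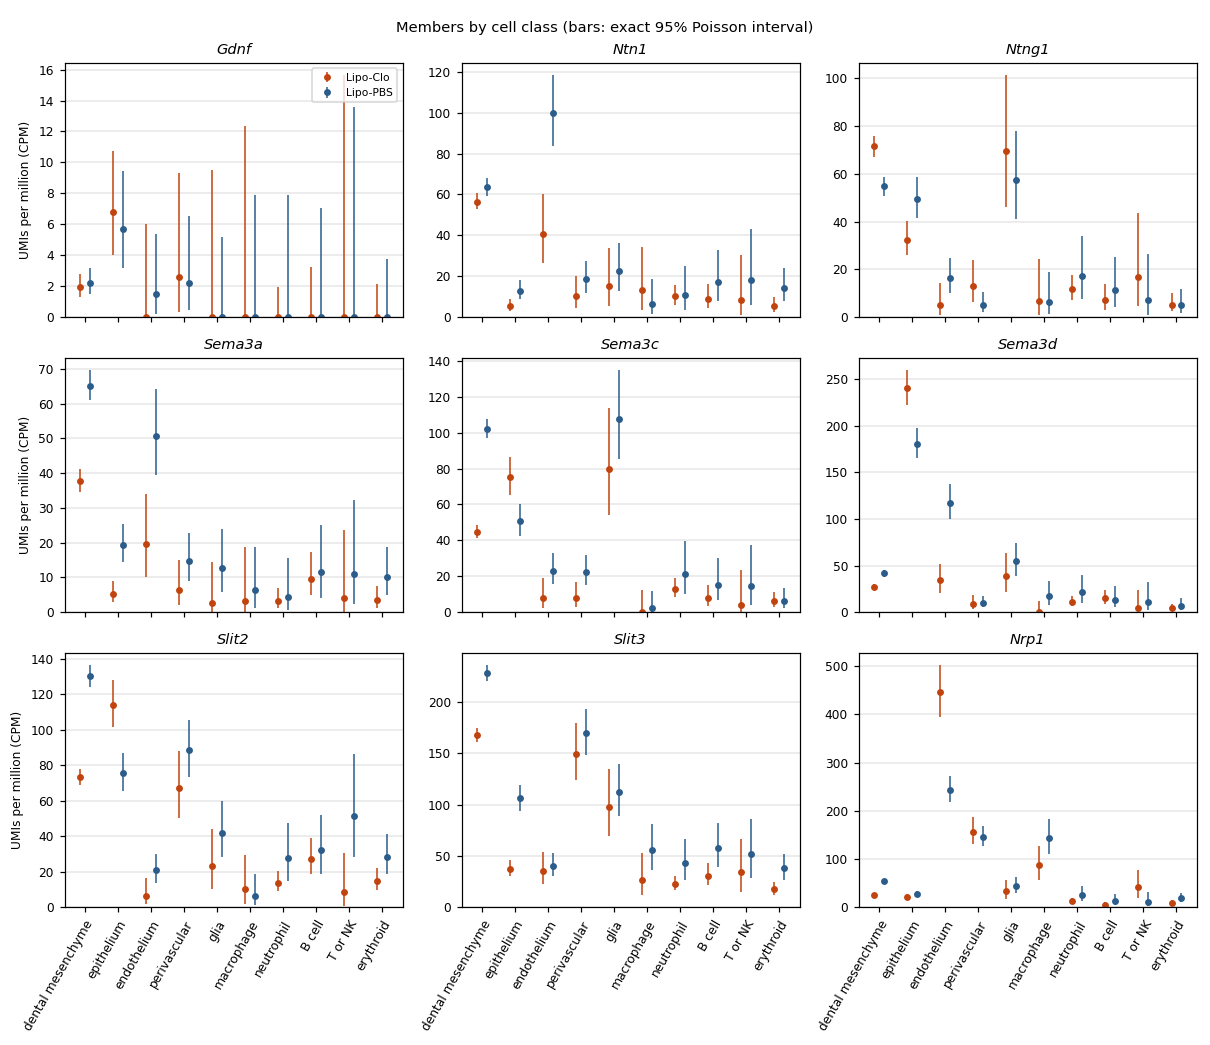
Level of each gene (y axis, CPM) in 10 cell classes (x axis) in Lipo-Clo and Lipo-PBS, with exact 95% Poisson intervals. Nrp1 peaks in endothelium (445 and 244 CPM) and Sema3d in epithelium (240 and 181 CPM), and neutrophils and B cells show the level that free RNA gives.

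By class, the highest level lay in the same class of both libraries for 6 genes, namely in mesenchyme for Sema3a and Slit3, in epithelium for Gdnf and Sema3d, in endothelium for Nrp1 and in glia for Sema3c. The lead of glia was within counting error of epithelium in Lipo-Clo (79.9 CPM, 54.3 to 113, and 75.3 CPM, 65.3 to 86.5) and of mesenchyme in Lipo-PBS (108 CPM, 85.0 to 135, and 102 CPM, 96.9 to 108). The order of classes turned between the libraries for the other 3 genes. Ntn1 was at 56.5 CPM in mesenchyme and 40.6 CPM in endothelium in Lipo-Clo, with overlapping intervals, and at 63.6 and 99.98 CPM in Lipo-PBS. Slit2 was at 73.5 CPM in mesenchyme and 114 CPM in epithelium in Lipo-Clo, and at 130 and 75.4 CPM in Lipo-PBS. Ntng1 differed between mesenchyme and glia by less than counting error in either library (71.4 and 69.6 CPM, 54.7 and 57.4 CPM). By share, mesenchyme held over 50% of the UMIs of 7 genes, from 56.9% for Gdnf (46.7 to 66.6) to 81.0% for Sema3a (79.1 to 82.8), and 38.5% for Sema3d and 41.2% for Nrp1. The mesenchymal share of Ntn1 was 87.6% and 70.4%, and that of Slit3 84.0% and 72.5%. A cluster that carried markers of several lineages and was left unnamed held 79 Lipo-Clo and 749 Lipo-PBS cells, and it took 103 of the Lipo-PBS Ntn1 UMIs and 361 of the Slit3 UMIs. Its part in the difference between the shares was not tested.

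The profiles of the 9 genes over 22 points (11 subclusters, and the 11 classes other than mesenchyme and the cluster of several lineages) were compared with those of 12108 genes, and the 3 most alike are given as a description, since all points came from the same 2 libraries. Ntng1 was closest to Rbfox1, Egfem1 and Mapk10 (Pearson r of 0.92 for each), and Slit3 to Setbp1, Fbn2 and Fzd7 (0.93, 0.92 and 0.91). Nrp1 was closest to Gm56862 (0.93), Thbd and Acvrl1 (0.83 for both), of which Thbd and Acvrl1 are known from endothelium. Sema3a was closest to Dchs2, 2900041M22Rik and Ism1 (0.85 to 0.88), Sema3c to Spon2, Tnfaip6 and Ephb2 (0.83 to 0.87), and Sema3d to Vldlr, Celsr1 and Itga2 (0.81 to 0.85). Slit2 was closest to Acbd4, Col6a3 and Ackr4 (0.86 to 0.88), Ntn1 to Igf1, Arsj and Cgnl1 (0.86 to 0.87), and Gdnf, on few UMIs, to Fam13a, Slc4a4 and Scin (0.81 to 0.89).

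Receptors of the families that bind these ligands mostly had their highest class level in mesenchyme, epithelium or endothelium. Some were highest in glia, muscle or B cells. Receptor levels are given with both libraries summed. Lrrc4c, the partner of Ntng1, had its highest class level in mesenchyme (93.9 CPM), and within it in the same cells as Ntng1, at 698 CPM in pulp-like and 459 CPM in Ctnnd2-led cells. Unc5c and Unc5d were also highest in mesenchyme (103 and 46.2 CPM), with Unc5c at 634 CPM in the Ctnnd2-led cells, where Ntn1 was at the free-RNA level. Neo1 and Unc5b were highest in epithelium (132 and 82.2 CPM), Dcc was at 3.75 CPM in mesenchyme and highest in its Col14a1- and Ccl19-led cells (23.4 CPM, 14.3 to 36.1, from 20 UMIs), and Unc5a had 1 UMI in its leading class, muscle. Robo1 led in mesenchyme (169 CPM), Robo2 in epithelium (152 CPM), with mesenchyme just behind at 150 CPM, Robo4 in endothelium (98.2 CPM) and Robo3 in B cells (16.9 CPM).

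Of the semaphorin receptors, Nrp2, Plxna2, Plxna4 and Plxnd1 were highest in endothelium (266, 159, 78.2 and 307 CPM), as was the VEGF receptor Kdr (538 CPM). Plxna1 led in epithelium (46.4 CPM) and Plxna3 in muscle, on 4 UMIs. Nrp2 was also in use in mesenchyme, with 230 CPM in the osteoblast or cementoblast-like cells. Gfra1, which presents GDNF to Ret, was highest in glia (106 CPM) and Ret in muscle (64.1 CPM from 14 UMIs), and neither passed 19.9 CPM in a mesenchymal subcluster.

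The comparison of Lipo-Clo with Lipo-PBS asked whether the cues differed in dental mesenchyme after clodronate. Summed over mesenchyme, 8 of the 9 genes were lower in Lipo-Clo and Ntng1 was higher. A gene was called in use where 10% or more of the mesenchymal cells in 1 library or the other held a UMI of it, and 7 of the 9 were. Of these, Sema3a, Sema3c, Slit2 and Nrp1 passed 1.5-fold, all lower in Lipo-Clo. Of all 4752 genes in use, 6.12% passed that limit, 5.20% lower and 0.926% higher. Sema3c was at 44.8 and 102 CPM (log2 ratio -1.19, -1.33 to -1.05). Nrp1 was at 25.4 and 53.8 CPM (-1.08, -1.27 to -0.90), Slit2 at 73.5 and 130 CPM (-0.82, -0.93 to -0.71) and Sema3a at 37.8 and 65.2 CPM (-0.79, -0.94 to -0.63). Markers of vascular cells, the class in which Nrp1 was highest, were lower within Lipo-Clo mesenchyme too, and the 6 endothelial markers summed to 11.9 and 26.0 CPM and the 6 perivascular markers to 92.1 and 165 CPM, with none of them at 0. Their part in the Nrp1 difference was not tested.

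The other genes differed less. Slit3 had 167 and 228 CPM (log2 ratio -0.45, -0.52 to -0.37), and Ntn1 had 56.5 and 63.6 CPM (-0.17, -0.31 to -0.03). Ntng1 had 71.4 and 54.7 CPM (0.38, 0.25 to 0.52). Sema3d, which was not in use by the rule, lay just past the limit at 27.4 and 41.6 CPM (-0.60, -0.79 to -0.41), and with it 5 of the 9 genes were lower by over 1.5-fold, against 9.69% of all genes with at least 20 UMIs. The interval for Gdnf spanned 0 (-0.19, -0.99 to 0.60). With 1 library per condition, a difference between these libraries cannot be told apart from one between conditions.

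The mesenchyme of the 2 libraries was not made up alike. The larger fibroblast-like subcluster held 10.1% of Lipo-Clo and 19.8% of Lipo-PBS mesenchyme, and the ligament-like one 5.01% and 11.9%. The pulp-like one held 10.8% and 6.49% and the Ctnnd2-led one 9.74% and 5.34%. The unnamed Aspn- and Tnn-led one, which carries ligament list genes too, held 17.0% and 11.1%. When each subcluster was given its average proportion in both libraries, only Sema3c of the 7 genes in use still passed 1.5-fold (54.8 and 90.3 CPM, log2 ratio -0.72). The share of all genes in use that passed at these proportions was not computed. Nrp1 then stood at 31.3 and 45.7 CPM (-0.55, 1.46-fold), Slit2 at 80.0 and 118 CPM (-0.56, 1.48-fold), and Sema3a at 41.1 and 59.6 CPM (-0.53, 1.45-fold). Each of these was just under the limit. Slit3 stood at -0.43 and Sema3d at -0.56, close to the values as found. Ntng1 came to -0.05 and Ntn1 to 0.09, each with its sign turned.

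**Figure D3:**
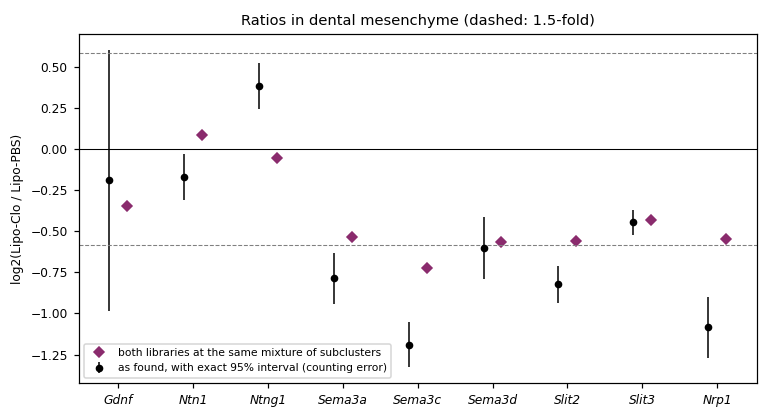
Log2 ratio of Lipo-Clo over Lipo-PBS (y axis) for each gene (x axis) in dental mesenchyme, as found (with exact 95% intervals for counting error) and with each subcluster at its average proportion in both libraries (no interval). Nrp1 moves from -1.08 to -0.55 and Ntng1 from 0.38 to -0.05, and Sema3c alone of the genes in use stays past the dashed 1.5-fold line.

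Within subclusters, Slit3 was lower in Lipo-Clo in 11 of 11 with at least 20 UMIs, with an interval clear of 0 in 7, and Nrp1 in 11 of 11, clear in 4. In the Aspn- and Tnn-led, osteoblast or cementoblast-like, follicle-like and pulp-like subclusters, Nrp1 lay between 3.70 and 17.7 CPM. These values were near or below its free-RNA level of 10.6 and 19.2 CPM, which was itself lower in Lipo-Clo, with an interval that reached 0. In odontoblast-like cells, 1 of the 4 clear, Nrp1 was at 6.71 and 30.2 CPM on 5 and 17 UMIs. That Lipo-Clo value was below free RNA too. In the larger fibroblast-like subcluster the Nrp1 interval reached 0 (-0.28, -0.58 to 0.0015). Sema3c was lower in 8 of 8, clear in 6, and Slit2 in 10 of 11, clear in 7. Those clear for Sema3c include the Pcp4- and Sfrp2-led subcluster, where its Lipo-Clo value was below free RNA. Sema3a and Sema3d were lower in 9 of 10 each, clear in 6 and 3. Ntn1 was higher in 5 of 8 and Ntng1 in 6 of 10, each clear in 1, and Gdnf was higher in the 1 subcluster with enough UMIs. Subclusters of 1 library share that library, so these counts are not replicates. The share of all genes lower in as many subclusters was not computed.

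The size of the difference varied from source to source. Sema3c was at 7.72 and 33.1 CPM in the Pcp4- and Sfrp2-led subcluster (log2 ratio -2.10, -3.16 to -1.14), and at 38.1 and 107 CPM in the Aspn- and Tnn-led one (-1.48, -1.84 to -1.13). In the Pcp4- and Sfrp2-led cells the Lipo-Clo value was below the Sema3c free-RNA level of that library. The Lipo-PBS value there was above the level of its own library. In the larger fibroblast-like subcluster, the main source of Sema3c, this gene differed by -0.35 (-0.57 to -0.13). Slit2 was lower in its 3 main sources, by -0.97 in ligament-like, -0.71 in follicle-like and -0.56 in Col14a1- and Ccl19-led cells, whereas the interval in osteoblast or cementoblast-like cells ran from -0.38 to 0.37. Slit3 differed most in follicle-like cells, at 80.7 and 182 CPM (-1.18, -1.46 to -0.90), and little in its leading Ctnnd2-led subcluster (-0.06, -0.33 to 0.21).

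In the pulp-like cells Ntng1 was at 293 and 290 CPM (log2 ratio 0.01, -0.21 to 0.23). Slit2 and Sema3d, both low there, were lower in Lipo-Clo (-1.35 and -1.27), at levels near those of free RNA. Sema3a was also lower there, at 22.1 and 42.2 CPM (-0.94, -1.64 to -0.24), above its free-RNA level of 5.65 and 8.09 CPM. Slit3 was at 196 and 244 CPM in the same cells (-0.32, -0.57 to -0.07). Ntn1 was higher in Lipo-Clo in follicle-like cells (0.49, 0.16 to 0.82), and lower in the Pcp4- and Sfrp2-led cells (-0.60, -1.11 to -0.10). Sema3d in odontoblast-like cells differed by -0.32 (-0.67 to 0.03).

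**Figure D4:**
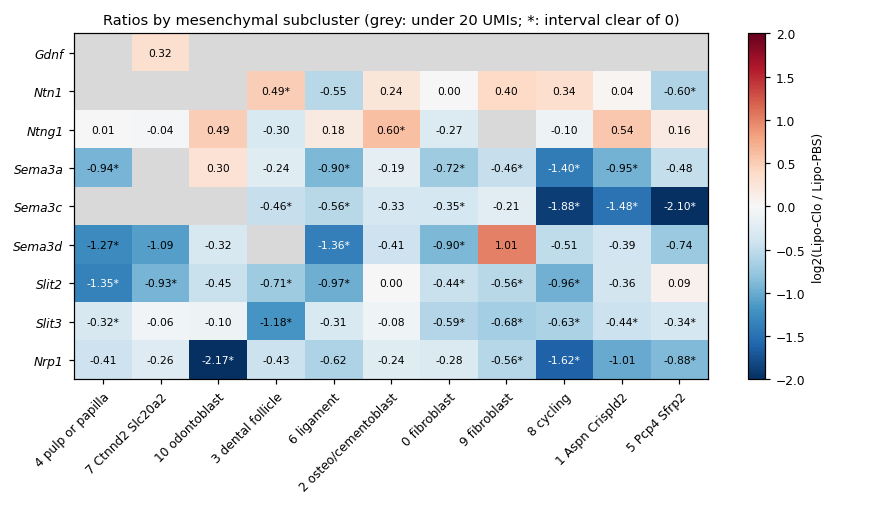
Log2 ratio of Lipo-Clo over Lipo-PBS (colour and number) for each gene (rows) in each mesenchymal subcluster (columns). Grey cells had under 20 UMIs in both libraries together, and an asterisk marks an exact 95% interval clear of 0. The rows of Sema3c, Slit3 and Nrp1 hold no positive value, and Ntng1 is at 0.01 in pulp-like cells. In several subclusters Nrp1 lay near or below its free-RNA level.

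As CPM, the level read from B cells and neutrophils was itself lower in Lipo-Clo. These cells had medians of 1874 and 1441 UMIs, and 513 and 187 of them were neutrophils. The percent of them with a UMI was higher in Lipo-Clo for Nrp1 (3.08 and 2.86). It was lower for the others with a UMI, such as Ntng1 (2.60 and 2.64) and Slit3 (6.07 and 8.57). In B cells and neutrophils, Slit3 was at 25.9 and 50.6 CPM (log2 ratio -0.96, -1.49 to -0.42), and the other 7 genes with a UMI there had ratios between -0.85 and -0.44, with intervals that reached 0. With that level subtracted, the mesenchymal ratio was -1.31 for Sema3c, -1.23 for Nrp1, -0.87 for Slit2, -0.83 for Sema3a, -0.33 for Slit3 and 0.60 for Ntng1, which then passed 1.5-fold. The subtraction takes free RNA to be the same share of UMIs in mesenchyme, where medians were 2844 and 2972 UMIs per cell. Whether that share was the same was not tested. What lowered this CPM, be it depth, the mixture of cells or free RNA itself, was not tested.

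In epithelium, 5 of 9 genes with at least 20 UMIs passed 1.5-fold, Slit2 higher and Ntn1, Ntng1, Sema3a and Slit3 lower in Lipo-Clo, where 25.5% of all genes with as many UMIs passed. Epithelial Ntn1 was at 5.27 and 12.9 CPM, below its free-RNA level of 9.65 and 14.2 CPM. The Ambn- and Odam-led cluster held 604 of 845 Lipo-Clo and 336 of 791 Lipo-PBS epithelial cells. Inside it, Slit2 was at 170 and 143 CPM (log2 ratio 0.25, -0.05 to 0.57), Sema3c at 107 and 75.3 CPM (0.51, 0.09 to 0.93), and Slit3 at 22.3 and 82.0 CPM (-1.88, -2.49 to -1.29). Sema3d was at 344 and 311 CPM there (0.14, -0.07 to 0.36), and in the Cxcl14-led cluster at 309 and 663 CPM (-1.10, -1.59 to -0.64). Ntng1 was at 388 and 390 CPM in the Cxcl14-led cluster (-0.01, -0.49 to 0.47). It was at 15.6 and 15.3 CPM in the Lgals7- and Krt14-led cluster (0.02, -1.08 to 1.07). In the Ambn- and Odam-led cluster it was at 5.43 and 15.7 CPM (-1.53, -2.92 to -0.22), on 9 and 14 UMIs. Outside the Cxcl14-led cluster these values were near or below the Ntng1 free-RNA level of 9.98 and 14.2 CPM. The Lipo-Clo value of Slit3 in the Ambn- and Odam-led cluster was also below its Lipo-Clo free-RNA level, 25.9 CPM.

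In endothelium, 7 of 8 genes passed 1.5-fold, against 26.6% of all genes, Nrp1 higher and the other 6 lower in Lipo-Clo. The Ccl21a-led cluster, which carries most endothelial Ntn1, Sema3a and Sema3d, held 31 of 397 Lipo-Clo and 147 of 540 Lipo-PBS endothelial cells. Inside it, Ntn1 (0.35, -0.36 to 1.01), Sema3a (-0.20, -1.47 to 0.88) and Sema3d (-0.37, -1.17 to 0.34) had intervals that included 0, and so did Nrp1 in the Flt1- and Cdh5-led cells (0.17, -0.07 to 0.41). Intervals clear of 0 were found for Nrp1 in the Ccl21a-led cells, with 0 and 28 UMIs (upper bound -0.14). The same held for Ntn1 in the Flt1- and Cdh5-led cells, with 2 and 18 UMIs (-2.88, -6.03 to -0.81). Ntn1 stood at 3.98 CPM there in Lipo-Clo, below its free-RNA level of 9.65 CPM.

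In perivascular cells 3 of 7 genes passed, against 21.0% of all genes, but Slit2, Slit3 and Nrp1, their main cues, did not (log2 ratios of -0.40, -0.18 and 0.10, with intervals across 0). In glia 1 of 7 passed, against 28.7%, namely Slit2 at 23.2 and 42.0 CPM (-0.86, -2.12 to 0.26), near its free-RNA level of 19.0 and 30.3 CPM. Macrophages had enough UMIs for Nrp1 and Slit3 alone, and both passed (32.6% of all genes), with Nrp1 at 87.3 and 143 CPM (-0.72, -1.43 to -0.04). Macrophage Slit3 was at 26.9 and 55.6 CPM (-1.05, -2.40 to 0.13), near its free-RNA level of 25.9 and 50.6 CPM. In neutrophils 5 of 7 passed (41.3% of all genes), in B cells 1 of 3 (32.9%), in T or NK cells 1 of 1 (32.3%) and in erythroid cells 4 of 4 (29.8%), all lower in Lipo-Clo. Neutrophils and B cells are themselves the measure of free RNA used here. The erythroid genes were Ntn1 (5.21 and 14.3 CPM), Slit2 (15.1 and 28.6 CPM), Slit3 (17.4 and 37.8 CPM) and Nrp1 (8.69 and 18.4 CPM). All of these were near or below their free-RNA levels, as was Slit3 in T or NK cells (33.9 and 51.4 CPM).

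Of the wider set of 87 guidance and neurotrophic genes (other netrins, semaphorins, ephrins, neurotrophins and their receptors), 20 were in use in mesenchyme, and 1 of them passed 1.5-fold, against 6.12% of all genes in use. This was Ntrk2, the receptor of BDNF, at 42.4 and 66.2 CPM (log2 ratio -0.64, -0.79 to -0.49). It was highest in the Col14a1- and Ccl19-led fibroblast-like cells. The median ratio of the 20 was -0.18, against -0.0040 over all genes in use. Of the receptors of the slits, Robo1 was at 158 and 181 CPM (-0.20, -0.28 to -0.12) and Robo2 was at 127 and 175 CPM (-0.47, -0.55 to -0.38). Nrp2 was at 112 and 147 CPM (-0.39, -0.49 to -0.30), Lrrc4c at 88.0 and 100.3 CPM (-0.19, -0.30 to -0.08) and Neo1 at 107 and 104 CPM (0.04, -0.06 to 0.15). Gfra1, not in use by the rule, was at 2.63 and 6.64 CPM (-1.33, -1.92 to -0.77), and Ret at 3.33 and 3.69 CPM (-0.15, -0.75 to 0.45).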

How the data were processed

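Molars had been dissociated with Dispase and collagenase I and sequenced on the 10x platform. The authors deposited raw UMI counts per gene and called cell, not normalized (31053404 UMIs in 9362 Lipo-Clo cells, 30537834 in 9653 Lipo-PBS cells). The file headers name Cell Ranger 8.0.0, and the submitters' processing notes name Cell Ranger 3.1.0, Seurat 3.1.1 and GRCm39.

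Cells with under 200 genes or over 20% mitochondrial UMIs were removed. Scrublet in scanpy 1.11.5 called 0 and 1 doublets automatically, so the 632 and 633 highest scores (0.8% per 1000 cells) were left out. Both libraries were clustered together with leidenalg 0.10.2 (2000 variable genes, 30 components, 20 neighbours, resolution 1), without batch correction, and mesenchyme again (20 components, resolution 0.6), each time without the 9 genes and the 87 partner genes as variable genes. Names needed 3 markers at least 2-fold above the 25th percentile of clusters (the median of subclusters) in 10% of cells. Clusters of all cells also needed to have no other lineage near in score. Mesenchymal subclusters took the name with the highest score, however near the next one was. No test was possible with 1 library per condition, and intervals are exact Poisson, Clopper-Pearson and conditional ones. The receptors, partner genes past the limit and the 3 most alike genes (log2(CPM + 10), at least 200 UMIs) were named by rule. TMM factors (edgeR 4.0.16), DESeq2 1.42.0 size factors, other filters, resolutions and weightings were tried. The code was tested on simulated data. The members, lists and naming rules were chosen with earlier results of these data known.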

Additional observations from a re-analysis of the deposited data

Results flagged for a closer look

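Nrp1 and Slit2 stood past 1.5-fold in opposite directions in 2 cell classes, with intervals clear of 0 in both, and the difference between the classes was not tested. Nrp1 had a log2 ratio of 0.87 in endothelium and -1.08 in dental mesenchyme, and within the Flt1- and Cdh5-led endothelial cluster the ratio was 0.17 (-0.07 to 0.41). In the Ccl21a-led endothelial cluster Nrp1 had 0 UMIs in Lipo-Clo and 28 in Lipo-PBS. Slit2 had a log2 ratio of 0.60 in epithelium and -0.82 in dental mesenchyme, and within the Ambn- and Odam-led and the Lgals7- and Krt14-led epithelial clusters it was 0.25 (-0.05 to 0.57) and -1.29 (-2.21 to -0.47).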

How the results depend on the processing

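No paired analysis was possible because only 1 library was made per condition. The count of genes in use past 1.5-fold in mesenchyme, 4 as reported, was 1 with each subcluster at its average proportion in both libraries and 2 at a limit of 2-fold. It was 4 or 5 under the other alternatives of cell filter, doublets, resolution, scaling and thinning, and 6 at the lower limit tried. Of the partner genes, 6 passed at that lower limit, 0 at 2-fold and 11 of 76 when all genes with at least 20 UMIs were counted, against 1 of 20 as reported. Of all genes with at least 20 UMIs, 15.2% passed 1.5-fold. The share of all genes past the lower limit or past 2-fold was not computed. Nor was the share past 1.5-fold at the average proportions or under the alternatives of filter, doublets, resolution, scaling and thinning. Those counts therefore have no background to be read against. The number of genes lower in Lipo-Clo was 7 or 8 of 9, and no gene past the limit turned its direction, whereas Ntn1 and Ntng1 turned theirs at those proportions. Log2 ratios over the 17 alternatives ran from -1.31 to -0.72 for Sema3c, -1.23 to -0.55 for Nrp1, -0.92 to -0.56 for Slit2, -0.84 to -0.53 for Sema3a, -0.76 to -0.50 for Sema3d, -0.47 to -0.25 for Slit3, -0.05 to 0.62 for Ntng1, -0.21 to 0.09 for Ntn1 and -0.34 to 0.79 for Gdnf. With doublets kept, mesenchyme held 68.7% of Ntn1 UMIs and 63.9% of Slit2 UMIs, and under the 4 alternatives run for these shares (doublets kept, every deposited cell kept, resolution 0.5 and 2) it held over 50% for 7 genes. The leading subcluster was made of other cells for Sema3a and Slit2 at resolution 0.3 and for Ntn1, Slit2 and Nrp1 at resolution 1. The cause of these shifts was not tested, other than the mixture, which that weighting holds fixed. Alternatives that count the cluster of several lineages as mesenchyme, subtract free RNA, leave out shared barcodes, take DESeq2 factors from genes in use, count partner genes by UMIs or leave out unnamed classes were chosen after seeing the data. Depth limits Gdnf most.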

Other observations

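Ephb1, a receptor for ephrins, was the partner gene with the largest ratio in mesenchyme among those with at least 20 UMIs, and it was chosen for mention after its values were seen. It was at 34.3 CPM in the Lipo-Clo library against 9.82 CPM (log2 ratio 1.81, 1.53 to 2.09), and 416 of its 628 mesenchymal UMIs lay in the follicle-like subcluster, at 110 CPM.

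Of the clusters left without a name, the one that carried markers of several lineages had Slit3 at 109 CPM in 79 Lipo-Clo cells and 131 CPM in 749 Lipo-PBS cells, Nrp1 at 109 and 72.8 CPM, and Slit2 at 71.0 and 64.5 CPM. The one led by Cd74 and Tyrobp, with 384 Lipo-Clo and 179 Lipo-PBS cells, had Slit3 at 14.2 and 61.0 CPM and Nrp1 at 13.4 and 30.5 CPM, against free-RNA levels of 25.9 and 50.6 CPM for Slit3 and 10.6 and 19.2 CPM for Nrp1.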
